A study of Sus scrofa with 12 samples.

Results

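The 60 genes described here are nuclear genes of the 5 complexes of oxidative phosphorylation, measured in semimembranosus muscle of pigs between 20 min and 24 h after death. They were chosen by symbol in the platform annotation: NDUFA, NDUFB, NDUFC, NDUFS or NDUFV for complex I (33 genes), SDHA to SDHD for complex II (4), UQCR for complex III (2), COX4 to COX8 for complex IV (7) and ATP5 for complex V (14). Each gene was represented by its brightest probe set over the 12 arrays, and the 60 were part of 6765 genes with 1 symbol. Values are log2 intensities of a 1-colour Affymetrix porcine array. A difference of 1 on this scale is a doubling, and intensities of different probe sets cannot be set against each other. The symbols are those of the annotation and several are old. ATP5S, kept under complex V by its symbol, encodes a coupling factor outside the core structure. COX4I1, COX6A2, UQCRC1 and the subunits encoded by mitochondrial DNA were not analysed here.

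The study followed the same muscle of the left leg of 3 pigs through the abattoir's cold chain. The animals were female commercial hybrids of about 160 kg from 1 farm, stunned with CO2 at 87%. No other treatment is named in the labels. Portions of 3 to 5 g were taken at 20 min and then after 2 h, 6 h and 24 h while the carcass cooled towards 4 °C, which makes 4 groups of 3 arrays, with 1 array for each pig at each time. Pigs are numbered as in the sample titles. Each portion is bulk tissue, so a lower share of a cell type and less RNA per cell cannot be told apart. Time after death and cooling cannot be told apart either.

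Complexes I and II take electrons from NADH and succinate and pass them to ubiquinone. Complex III passes them on to cytochrome c, and complex IV to oxygen. Complexes I, III and IV pump protons across the inner mitochondrial membrane, and complex V, the ATP synthase, uses their return flow to make ATP. Slow oxidative muscle fibres hold more of these complexes than fast glycolytic ones, and bleeding ends the supply of oxygen on which the chain depends.

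All 12 arrays shared nearly 1 distribution, with array medians between 5.89 and 5.94, and any 2 arrays correlated with r between 0.986 and 0.997 across probe sets. The 20 min array of pig 3 had the lowest mean correlation with the others, 0.989. Of 10 markers of skeletal muscle fibre, 7 were measured, and their mean log2 intensity lay between 14.13 and 14.19 on every array. The normalisation of the deposited values gives every array the same distribution, so a loss or gain of all transcripts alike would not show.

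No member passed the test over all probe sets, and the described differences are small. Over the 60 members the median log2 difference from 20 min was 0.09 at 2 h, 0.13 at 6 h and 0.13 at 24 h, which is 1.07-fold, 1.09-fold and 1.10-fold, while the medians of the 6765 genes were -0.01, -0.01 and -0.01. The single members ranged between -0.06 and 0.39 at 2 h, between -0.02 and 0.46 at 6 h and between -0.07 and 0.33 at 24 h. The mean was higher than at 20 min in 53, 59 and 58 of the 60 members (88.3%, 98.3% and 96.7%), against 50%, 48.2% and 52% of all 23999 probe sets tested. Under cyclic loess, repeated quantile normalisation and centring on the brightest 10% the 24 h count stayed at 58. The background was then 48.6%, 52.3% and 60.5%. At 2 h the counts were 55, 52 and 54, against 48.4%, 50.9% and 52.3%. At 6 h they were 58, 54 and 58, against 48%, 50.3% and 45.8%. The members' median log2 intensity over the 12 arrays, 11.98, lay above that of 98.3% of probe sets, so the background is mostly of dimmer ones. In limma's moderated test with pig as a block, 0 members had a Benjamini-Hochberg adjusted p under 0.05 at any time, and the background was 0% of probe sets at 2 h, 0% at 6 h and 0.00417% at 24 h. The smallest adjusted p of a member was 0.586 at 2 h, 0.488 at 6 h and 0.260 at 24 h. In limma's F test for any difference over the 4 times 0 members passed as well, with a smallest adjusted p of 0.567, and 0.00417% of probe sets did.

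At an unadjusted p under 0.05 the counts of members with a higher mean were 5 at 2 h (8.33%), 16 at 6 h (26.7%) and 14 at 24 h (23.3%), against 4.01%, 4.29% and 6.41% of all probe sets. With a lower mean the counts were 0, 0 and 0, against 3.94%, 4.54% and 6.67%. The difference was positive in all 3 pigs for 18, 24 and 29 members (30%, 40% and 48.3%), against 13.8%, 15.4% and 17.8% of probe sets. All 3 later arrays lay above all 3 arrays of 20 min for 8, 12 and 14 members (13.3%, 20% and 23.3%), against 4.2%, 4.24% and 6.99%. These 3 comparisons share the 20 min arrays. The members also vary together. Across the 12 arrays the median correlation between a member and the mean of the others was 0.667 on the array values and 0.835 after each pig's mean was removed, so their counts are not made of independent genes. The limits of the 95% intervals of the 24 h differences stayed within 1.5-fold for all 60 members, and for 59 at 2 h and 58 at 6 h.

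**Figure D1:**
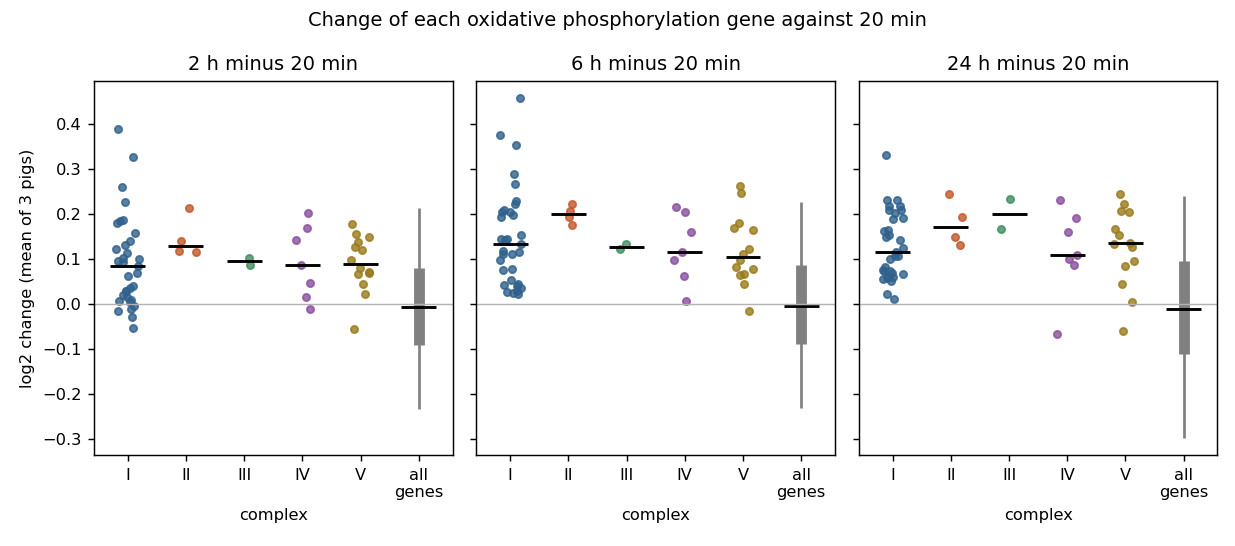
Log2 differences from 20 min at 2 h, 6 h and 24 h (vertical axis) for each member, grouped by complex, with each point a gene and each black line a median, beside the 6765 genes (thick bar for the middle 50%, thin line from the 5th to the 95th percentile). At 24 h all 33 points of complex I lie above 0, and COX6A1 and ATP5G2 lie below it.

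Complex I, the NADH dehydrogenase, was the most fully measured, and all 33 of its subunits had a higher mean at 24 h than at 20 min. The median log2 difference was 0.08 at 2 h, 0.13 at 6 h and 0.11 at 24 h, with 4, 10 and 7 subunits higher at an unadjusted p under 0.05, against 4.01%, 4.29% and 6.41% of all probe sets. The 5 core subunits measured, which carry the flavin or the iron-sulfur clusters or stand beside them, are NDUFS1, NDUFS3, NDUFS7, NDUFV1 and NDUFV2. Their median differences were 0.14, 0.22 and 0.19, beside 0.07, 0.12 and 0.11 for the 28 accessory subunits, a gap that was not tested.

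NDUFS7, a core subunit that holds the last iron-sulfur cluster before ubiquinone, had the highest 24 h difference of all members. NDUFS7 had log2 intensities of 11.40, 11.26 and 10.91 at 20 min, 11.53, 11.56 and 11.47 after 2 h, 11.47, 11.74 and 11.50 after 6 h and 11.46, 11.70 and 11.42 after 24 h, in pigs 1, 2 and 3. Every later array was above every array of 20 min, and the 20 min array of pig 3 was the lowest. The log2 difference from 20 min was 0.33 ± 0.22 at 2 h, 0.38 ± 0.27 at 6 h and 0.33 ± 0.24 at 24 h (SD over 3 pigs), with limma adjusted p of 0.586, 0.488 and 0.260. In pig 1 alone the 24 h difference was 0.05, beside 0.44 in pig 2 and 0.50 in pig 3. The other core subunits had 24 h differences of 0.23 for NDUFS1, which is the largest of them and holds several clusters, 0.19 for NDUFV1, which binds NADH, 0.16 for NDUFS3 and 0.07 for NDUFV2.

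NDUFA13, an accessory subunit also known as GRIM-19, had the highest differences of all members at 2 h and 6 h. NDUFA13 had log2 intensities of 11.96, 11.65 and 11.37 at 20 min, 11.98, 12.05 and 12.13 after 2 h, 12.11, 12.18 and 12.07 after 6 h and 11.83, 12.08 and 11.72 after 24 h, in the order of pigs 1, 2 and 3. All arrays of 2 h and 6 h were above all arrays of 20 min, whereas those of 24 h overlapped them in pigs 1 and 3. The log2 difference was 0.39 ± 0.37 at 2 h, 0.46 ± 0.28 at 6 h and 0.22 ± 0.31 at 24 h (SD over 3 pigs), with limma adjusted p of 0.587, 0.488 and 0.474. NDUFA10, an accessory subunit related in sequence to nucleoside kinases, also had higher means at all 3 later times. Its arrays had log2 intensities of 10.12, 10.05 and 9.91 at 20 min, 10.15, 10.34 and 10.37 after 2 h, 10.24, 10.54 and 10.36 after 6 h and 10.15, 10.38 and 10.17 after 24 h. Every later array was above every 20 min array, and the highest value was that of pig 2 at 6 h. Its differences were 0.26 ± 0.22, 0.35 ± 0.21 and 0.21 ± 0.16, with adjusted p of 0.609, 0.488 and 0.382.

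NDUFB2, a small subunit of the membrane arm, had the highest 24 h difference among the accessory subunits. NDUFB2 had log2 intensities of 11.81, 11.84 and 11.79 at 20 min, 11.86, 11.91 and 11.97 after 2 h, 11.82, 12.08 and 11.97 after 6 h and 11.99, 12.04 and 12.10 after 24 h. The arrays of 2 h and 24 h were all above those of 20 min, and at 6 h pig 1 lay between them. The 24 h difference of 0.23 ± 0.07 varied little over the 3 pigs, but its limma adjusted p was 0.286. At the other end of the complex stood NDUFA7, an accessory subunit. NDUFA7 had log2 intensities of 10.47, 10.76 and 10.57 at 20 min, 10.42, 10.78 and 10.62 after 2 h, 10.28, 10.88 and 10.72 after 6 h and 10.39, 10.77 and 10.68 after 24 h. Pig 1 was lowest at each time and the groups overlapped throughout, with a 24 h difference of 0.01 ± 0.09 (limma adjusted p = 0.965).

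The other 28 subunits of complex I had 24 h differences between 0.02 and 0.23. NDUFA4, which has since been assigned to complex IV, had differences of 0.18, 0.21 and 0.21, and its later arrays were above those of 20 min at each time. NDUFA1, NDUFA9 and NDUFS6 had no overlap between 24 h and 20 min, with 24 h differences of 0.19, 0.20 and 0.15, and NDUFB9 reached 0.22 with overlap. NDUFAB1, the mitochondrial acyl carrier protein, had a 24 h difference of 0.11. The smallest after NDUFA7 was that of NDUFA5, 0.02.

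**Figure D2:**
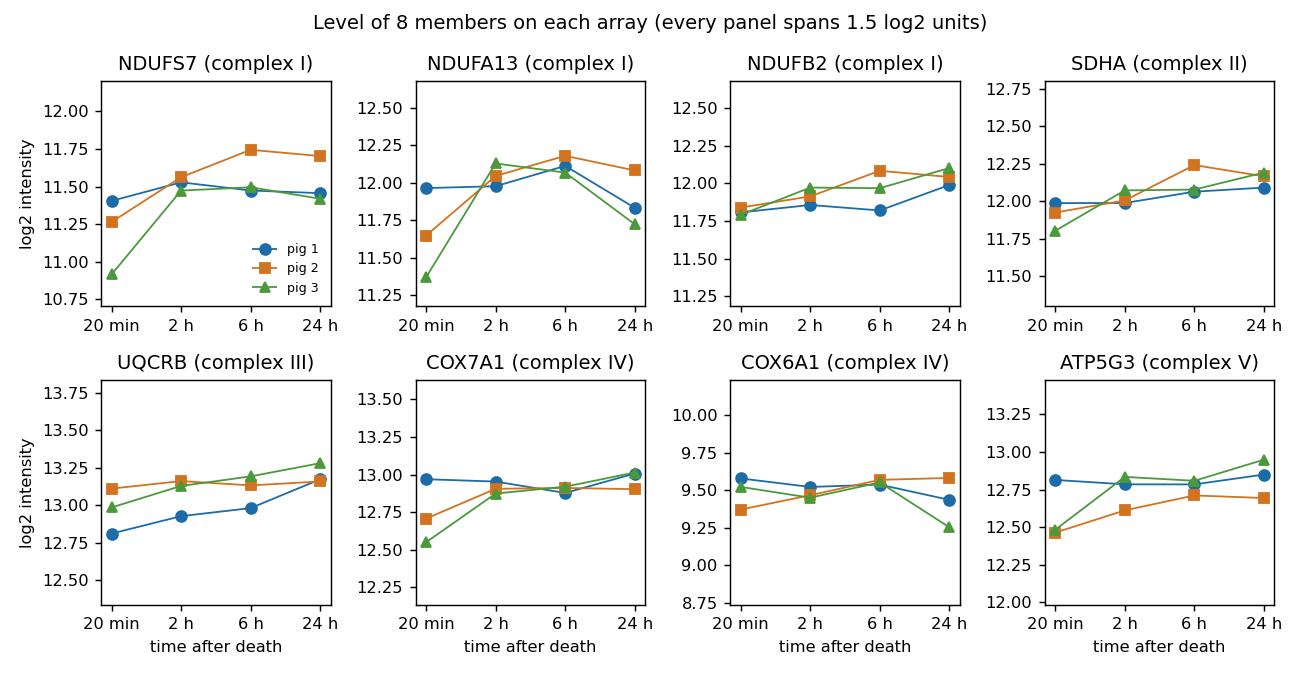
Log2 intensity (vertical axis) of 8 members at 20 min, 2 h, 6 h and 24 h, with a marker for each array, a line for each pig and the same span in every panel. In NDUFS7, NDUFA13 and COX7A1 the pigs are spread at 20 min with pig 3 lowest, whereas in UQCRB pig 1 is lowest and COX6A1 has no common course.

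Complex II, succinate dehydrogenase, is wholly encoded in the nucleus and belongs to both the citrate cycle and the chain. All 4 of its subunits had higher means than at 20 min at every later time. Their median log2 difference was 0.13 at 2 h, 0.20 at 6 h and 0.17 at 24 h, with 1, 2 and 2 subunits higher at an unadjusted p under 0.05 (all probe sets 4.01%, 4.29% and 6.41%). SDHA, the flavoprotein that oxidises succinate, had log2 intensities of 11.99, 11.92 and 11.80 at 20 min, 11.99, 12.01 and 12.07 after 2 h, 12.06, 12.24 and 12.08 after 6 h and 12.09, 12.17 and 12.19 after 24 h. The later arrays lay above all of those of 20 min, by less than the printed decimals at 2 h in pig 1. Its difference of 0.24 ± 0.14 at 24 h had a limma adjusted p of 0.293. SDHB, the iron-sulfur subunit, had log2 intensities of 13.20, 12.97 and 12.87 at 20 min, 13.17, 13.09 and 13.14 after 2 h, 13.20, 13.24 and 13.12 after 6 h and 13.19, 13.14 and 13.16 after 24 h. The 20 min arrays of pigs 2 and 3 were the lowest of the 12, while that of pig 1 lay within the range of the later ones. The 24 h difference was 0.15 ± 0.15 (limma adjusted p = 0.469).

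SDHC and SDHD anchor the enzyme in the membrane and bind ubiquinone. SDHC had log2 intensities of 10.88, 10.46 and 10.39 at 20 min, 10.91, 10.71 and 10.74 after 2 h, 10.93, 10.71 and 10.68 after 6 h and 10.77, 10.68 and 10.68 after 24 h. Pig 1 was highest at each time, the groups overlapped, and the 24 h difference was 0.13 ± 0.22 (limma adjusted p = 0.540). SDHD had log2 intensities of 12.10, 12.03 and 11.85 at 20 min, 12.19, 12.02 and 12.19 after 2 h, 12.34, 12.13 and 12.13 after 6 h and 12.23, 12.15 and 12.18 after 24 h. All arrays of 6 h and 24 h were above those of 20 min, and pig 2 at 2 h was not. The 24 h difference of SDHD was 0.19 ± 0.12 (limma adjusted p = 0.368).

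Complex III, which passes electrons from ubiquinol to cytochrome c, was represented by 2 small subunits, so its median of 0.20 at 24 h describes only these. UQCRB, a subunit next to a ubiquinone-binding site, had log2 intensities of 12.81, 13.11 and 12.98 at 20 min, 12.93, 13.16 and 13.13 after 2 h, 12.98, 13.13 and 13.19 after 6 h and 13.17, 13.16 and 13.28 after 24 h. The 24 h arrays were all above those of 20 min and the 2 h and 6 h arrays were not. Here pig 1 was the lowest at 20 min, unlike in most members, and the 24 h differences of pigs 1, 2 and 3 were 0.36, 0.05 and 0.30, a mean of 0.23 ± 0.17 (limma adjusted p = 0.294). UQCR10 had log2 intensities of 12.42, 12.33 and 12.31 at 20 min, 12.37, 12.48 and 12.48 after 2 h, 12.36, 12.53 and 12.55 after 6 h and 12.43, 12.57 and 12.56 after 24 h. Only at 24 h were all of its arrays above those of 20 min, with a difference of 0.17 ± 0.13 (limma adjusted p = 0.406).

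Complex IV, cytochrome c oxidase, had 7 genes measured, COX5B, COX6A1, COX6C, COX7A1, COX7A2, COX7C and COX8H. Their median difference was 0.09 at 2 h, 0.12 at 6 h and 0.11 at 24 h, and 6 of 7 had a higher mean at 24 h. At an unadjusted p under 0.05, 0, 2 and 1 were higher (all probe sets 4.01%, 4.29% and 6.41%). Several subunits exist as a muscle and heart form and a widely expressed form. COX7A1, the muscle and heart form of subunit VIIa, had log2 intensities of 12.97, 12.71 and 12.55 at 20 min, 12.95, 12.90 and 12.87 after 2 h, 12.88, 12.91 and 12.92 after 6 h and 13.01, 12.90 and 13.01 after 24 h. The 20 min arrays of pigs 2 and 3 were the lowest of the 12 and that of pig 1 overlapped all later times. Its 24 h difference was 0.23 ± 0.22 (limma adjusted p = 0.342).

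COX7A2 is the widely expressed form of the same subunit. COX7A2 had log2 intensities of 11.02, 10.91 and 11.18 at 20 min, 10.89, 11.03 and 11.32 after 2 h, 10.93, 11.04 and 11.48 after 6 h and 10.77, 11.11 and 11.48 after 24 h. Pig 3 was highest at each time, and the 24 h differences of pigs 1, 2 and 3 were -0.25, 0.21 and 0.31, a mean of 0.09 ± 0.30 (limma adjusted p = 0.734). COX6A1, the widely expressed form of subunit VIa, had log2 intensities of 9.58, 9.37 and 9.52 at 20 min, 9.52, 9.47 and 9.45 after 2 h, 9.54, 9.57 and 9.55 after 6 h and 9.44, 9.58 and 9.25 after 24 h. The groups overlapped, and pig 3 at 24 h was the lowest array. Its 24 h difference of -0.07 ± 0.25 was the lowest of all 60 members (limma adjusted p = 0.783), and without pig 3 it was 0.03.

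Among the remaining subunits of complex IV, COX5B had the second highest 24 h difference of the complex. COX5B had log2 intensities of 12.92, 12.78 and 12.70 at 20 min, 12.86, 13.04 and 12.93 after 2 h, 12.93, 13.08 and 13.04 after 6 h and 12.83, 13.07 and 13.07 after 24 h. At 6 h all arrays were above those of 20 min, whereas pig 1 lay within them at 2 h and 24 h. The difference was 0.22 ± 0.18 at 6 h and 0.19 ± 0.25 at 24 h, with limma adjusted p of 0.557 and 0.412. COX8H, the muscle and heart form of subunit VIII, had a 24 h difference of 0.16. COX7C and COX6C, both small membrane subunits, had differences of only 0.11 and 0.10 at 24 h. Their 24 h arrays lay above all of 20 min, as did those of 6.99% of all probe sets. A much dimmer second set of COX7C had a 24 h difference of -0.01.

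Complex V had 14 genes, 13 of them with a higher mean at 24 h, and medians of 0.09 at 2 h, 0.10 at 6 h and 0.13 at 24 h. Those higher at an unadjusted p under 0.05 were 0, 2 and 3 (all probe sets 4.01%, 4.29% and 6.41%). Its catalytic head was represented by ATP5A1 and ATP5B, the alpha and beta subunits, and by ATP5D and ATP5E, delta and epsilon of the central stalk. Their 24 h differences were 0.13, 0.17, 0.22 and 0.10. ATP5D had log2 intensities of 11.49, 11.32 and 11.34 at 20 min, 11.47, 11.58 and 11.54 after 2 h, 11.59, 11.71 and 11.64 after 6 h and 11.47, 11.54 and 11.82 after 24 h. All 6 h arrays were above those of 20 min, and pig 1 overlapped them at 2 h and 24 h. ATP5D differed by 0.26 ± 0.15 at 6 h and 0.22 ± 0.25 at 24 h, with limma adjusted p of 0.521 and 0.374. ATP5A1 had no overlap with 20 min at 6 h or at 24 h, where 4.24% and 6.99% of all probe sets lay wholly above it. At 6 h the margin was slight, with 13.525 in pig 2 against 13.523 in pig 1 at 20 min.

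ATP5G1, ATP5G2 and ATP5G3 encode precursors of the same c subunit, which forms the ring that turns in the membrane, and their 24 h differences lay between -0.06 and 0.24. ATP5G3 had log2 intensities of 12.81, 12.46 and 12.48 at 20 min, 12.78, 12.61 and 12.83 after 2 h, 12.78, 12.71 and 12.81 after 6 h and 12.85, 12.69 and 12.95 after 24 h. The 20 min arrays of pigs 2 and 3 were the lowest, pig 1 overlapped the later times, and the 24 h difference was 0.24 ± 0.22 (limma adjusted p = 0.315). ATP5G2 had log2 intensities of 11.81, 11.70 and 11.74 at 20 min, 11.81, 11.69 and 11.82 after 2 h, 11.83, 11.85 and 11.78 after 6 h and 11.68, 11.66 and 11.73 after 24 h. The groups overlapped, and the 24 h value was below the 20 min one in all 3 pigs, with a mean log2 difference of -0.06 ± 0.07 (limma adjusted p = 0.755). ATP5G1 had a 24 h difference of 0.21. Whether the 3 probe sets also bind each other's transcripts was not tested. ATP5S, a coupling factor outside the core structure, had 0.00 at 24 h, and the stalk subunits ATP5F1, ATP5H, ATP5J and ATP5O had 0.15, 0.14, 0.04 and 0.08. ATP5I and ATP5L, small subunits of the membrane part, had 0.21 and 0.13.

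Most members were lowest at 20 min in the mean over the 3 pigs. This did not hold in pig 1 alone, where the members' median differences from 20 min were -0.02 at 2 h, -0.01 at 6 h and 0.01 at 24 h. The lowest of the 4 means was that of 20 min in 52 of 60 members (86.7%), against 29.6% of the 6765 genes. The highest mean fell at 6 h in 30 members (50%) and at 24 h in 28 (46.7%). It fell at 2 h in 2 (3.33%) and at 20 min in 0. Of the 6765 genes, 23.3% had theirs at 6 h, 25.8% at 24 h, 15.8% at 2 h and 35.1% at 20 min. Between later times the differences were smaller. From 2 h to 6 h the median log2 difference was 0.04, with 55 members higher (91.7%, against 49.8% of probe sets). For 24 h minus 2 h it was 0.05, with 46 higher (76.7%, against 52.6%). For 24 h minus 6 h it was -0.00245, with 29 higher (48.3%, against 53.5%). Under cyclic loess, repeated quantile normalisation and centring on the brightest 10% it was 0.02, 0.03 and 0.04. The members higher at 24 h than at 6 h were then 36, 37 and 43 (60%, 61.7% and 71.7%), against 50%, 52.3% and 66.5% of probe sets. Whether the share lay below or above the background thus depended on the scaling, and the gap was not tested. In these 3 comparisons 0 members had an unadjusted p under 0.05 in limma's test, against 2.26%, 5.23% and 8.08% of probe sets. None passed after Benjamini-Hochberg adjustment, against 0%, 0% and 0%. Between 24 h and 6 h the arrays of 5 members did not overlap (8.33%, against 10.1% of probe sets). That share was below the background, so these 5, named after their values were seen, are a description only. They were COX6C and ATP5A1, with differences of 0.09 and 0.05, and NDUFA11, NDUFS6 and ATP5G2, with -0.12, -0.11 and -0.13.

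**Figure D3:**
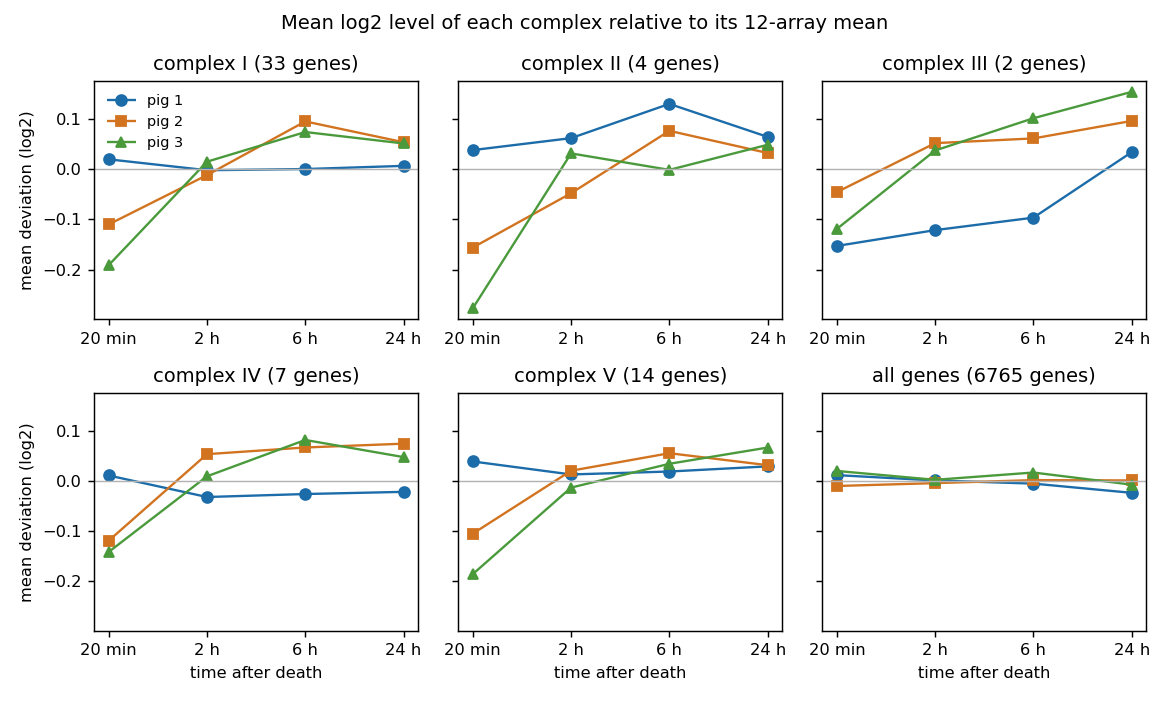
Mean log2 intensity of each complex on each array as a deviation from its mean over the 12 arrays (vertical axis), by time after death, with a line for each pig and the 6765 genes in the last panel. In complexes I, II, IV and V pigs 2 and 3 lie below pig 1 at 20 min, and in complex III pig 1 is the lowest.

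The spread of the members' mean over the pigs was widest at 20 min. The mean log2 intensity of the 60 members was 11.87, 11.74 and 11.67 in pigs 1, 2 and 3 at 20 min, 11.85, 11.86 and 11.86 after 2 h, 11.86, 11.93 and 11.92 after 6 h and 11.87, 11.91 and 11.91 after 24 h. Pig 1 thus stayed close to 1 level, and pigs 2 and 3 stood below it at 20 min only. Over members the median 24 h difference came to 0.01, 0.16 and 0.26 in pigs 1, 2 and 3, with 31, 57 and 57 of 60 members higher. The medians of the 6765 genes were -0.04, 0.01 and -0.01 in the same pigs. At 2 h the members' medians were -0.02, 0.11 and 0.18, and at 6 h -0.01, 0.18 and 0.26. By complex, the 24 h medians of pigs 1, 2 and 3 were 0.01, 0.15 and 0.26 for complex I, 0.04, 0.20 and 0.31 for complex II and 0.19, 0.14 and 0.27 for complex III. They were -0.02, 0.20 and 0.24 for complex IV and -0.00401, 0.14 and 0.22 for complex V. Complex III, with 2 genes, was the only one whose median in pig 1 was above that in pig 2.

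**Figure D4:**
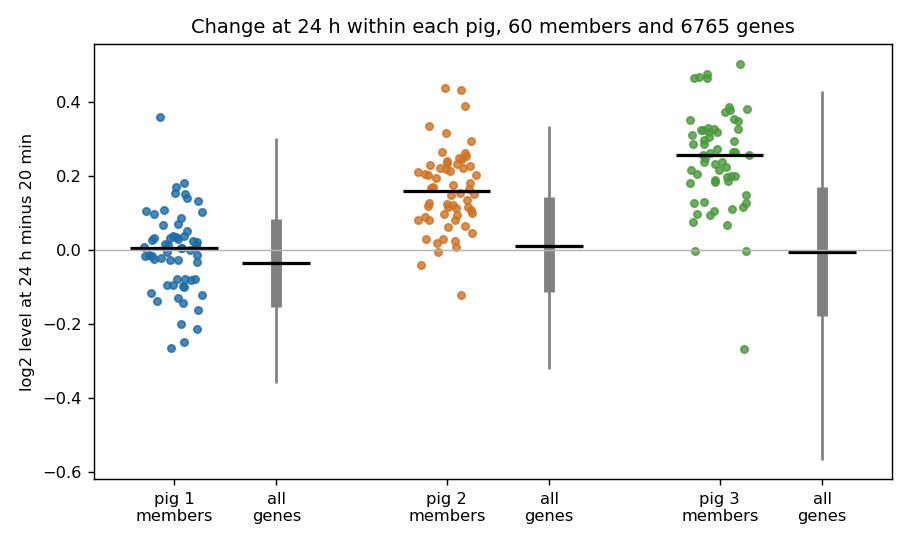
Log2 difference of 24 h minus 20 min within each pig, with a point for each of the 60 members and a black line at their median, beside the 6765 genes (thick bar for the middle 50%, thin line from the 5th to the 95th percentile, black line at the median). The members' median is 0.01 in pig 1, 0.16 in pig 2 and 0.26 in pig 3.

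Many of the low values came from the 20 min arrays of pigs 2 and 3. The lowest of the 12 arrays was that of pig 3 at 20 min in 34 members (56.7%, against 15.9% of the 6765 genes) and that of pig 2 at 20 min in 10. Pig 1 was the highest of the 3 at 20 min in 46 members (76.7%, against 37.9%). The median SD over the pigs was 0.12 at 20 min, 0.09 after 2 h, 0.09 after 6 h and 0.08 after 24 h, and 20 min was the widest time in 32 members (53.3%, against 31.3%). At an unadjusted p under 0.05, 14 members were higher at 24 h, and this count became 0 without pig 3, 2 without pig 2 and 22 without pig 1, against 3.27%, 4.85% and 6.28% of all probe sets in the same settings. It became 0, 6 and 32 without the 20 min array of pig 3, 2 or 1, against 3.7%, 5.44% and 8.63%, and 8 and 4 without the 24 h array of pig 2 or 3, against 5.29% and 3.73%. At 6 h 16 members were higher, and the count became 2, 3 and 25 without pig 3, 2 or 1, against 3.16%, 2.02% and 4.6%. Without their 20 min arrays it was 3, 6 and 29, against 2.93%, 2.47% and 6.96%, and without the 6 h array of pig 3 or 2 it was 8 and 3, against 3.87% and 2.45%. At 2 h 5 were higher, and the count became 0, 2 and 11 without pig 3, 2 or 1, against 2.26%, 3% and 4.85%. Without their 20 min arrays it was 0, 2 and 24, against 2.75%, 2.67% and 6.64%, and without the 2 h array of pig 3 it was 1, against 2.66%. The median difference kept its sign in each of these settings and ranged between 0.04 and 0.15 at 2 h, between 0.08 and 0.21 at 6 h and between 0.08 and 0.22 at 24 h. Of the ends at 24 h, the lower was without pig 3 and the upper without pig 1.

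**Figure D5:**
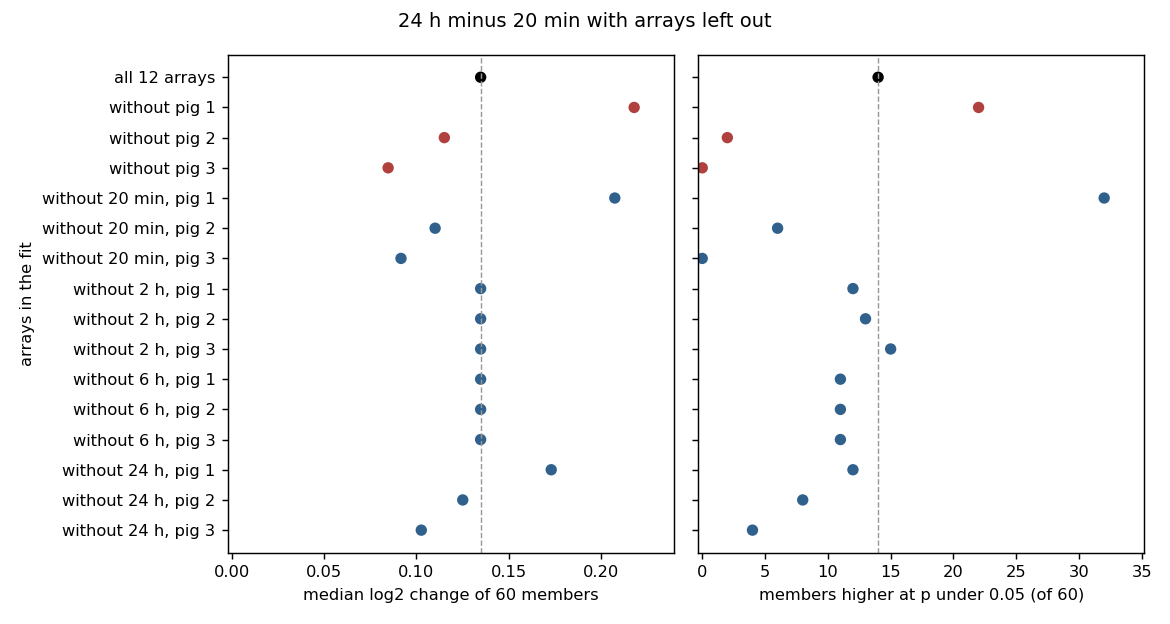
Median log2 difference of the 60 members at 24 h minus 20 min (left) and number of members higher at an unadjusted p under 0.05 (right), with all 12 arrays (black, dashed line) and without each pig (red) or each array (blue). The count lies between 0 and 32, and the median stays above 0.

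Other values moved with the pigs in the same way or another. Of 10 markers of slow fibres, which hold many mitochondria, 9 were measured. At 24 h 7 of them had a higher mean (52% of all probe sets), 4 at an unadjusted p under 0.05 (6.41%), and their mean log2 intensity ranged between 12.33 and 12.39 at 24 h and between 12.12 and 12.47 at 20 min. Their median 24 h differences were -0.04, 0.21 and 0.35 in pigs 1, 2 and 3, beside -0.00387, -0.04 and -0.12 for the 5 of 10 fast fibre markers measured. Of 13 markers of fibroblasts and matrix, 10 were measured, with 8.18 to 8.47 at 24 h and 8.14 to 8.74 at 20 min, the highest in pig 3. Their medians were 0.07, 0.07 and -0.22. Of 13 macrophage and leukocyte markers, 10 were measured, with 5.87 to 6.38 at 24 h and 6.31 to 6.86 at 20 min, and medians of -0.24, 0.10 and -0.99. The medians in pigs 1, 2 and 3 were 0.03, 0.38 and -0.18 for 8 of 8 endothelial markers and -0.10, 0.26 and -0.52 for 4 of 5 smooth muscle markers. They were 0.08, 0.30 and -0.32 for 4 of 6 adipocyte markers and -0.07, 0.30 and 0.12 for 3 of 5 blood markers. Intensities of this kind have no zero, so no marker can be called absent. The gap between the 3′ and 5′ control probe sets of EF1A, taken as 3′ minus 5′ and a sign of RNA breakdown, was higher at 24 h than at 20 min by 0.38 and 0.47 in pigs 1 and 3 and differed by -0.01 in pig 2. For GAPDH the same changes were 0.06, 0.01 and 0.04 in pigs 1, 2 and 3, and for ACTB they were 0.09, -0.23 and -0.04. The part of fibre type, other cells and RNA quality in the members' differences was not tested.

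Once each pig's mean was removed, many members varied together over the 12 arrays, which need not be a common course over time. With the mean of the others, 35 then correlated above 0.8 and 9 below 0.5, as a description over 12 arrays that share pigs, while on the array values 14 were above 0.8 and 19 below 0.5. Among the 9, ATP5S had 0.02, COX6A1 0.05, NDUFC1 0.19, NDUFB1 0.24, ATP5G2 0.25 and NDUFA5 0.31. SDHB had the highest correlation, 0.97. Outside the members, also after removal of pig means, the profiles closest to the members' mean over the 12 arrays were those of PRKAG1 (r = 0.979), LOC100156879 (0.978), ECI1 (0.976), GSTK1 (0.973) and ME3 (0.970). The slow fibre markers TNNC1 (0.966) and MYH7 (0.965) came next, and TNNT1 and TNNI1 of the same list ranked 17 and 20. The rest of the 9 slow fibre markers measured were not among the 20 closest. In that list 7 of 9 had a higher mean at 24 h, with differences between -0.23 and 0.39. PRKAG1 is a regulatory subunit of AMP-activated protein kinase, ECI1 an enzyme of fatty acid oxidation and ME3 a mitochondrial malic enzyme.

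A further 15 probe sets were measured for 12 of the members, all of them dimmer than the set used. Their 24 h difference had the sign of the brightest set in 11 of 15 cases, in 10 at 6 h and in 9 at 2 h. Their medians were 0.02 at 2 h, 0.10 at 6 h and 0.13 at 24 h. For NDUFB3, an accessory subunit of complex I, a second set of similar brightness had a 24 h difference of 0.34 ± 0.30, beside 0.07 ± 0.05 for the brightest (limma adjusted p of 0.260 and 0.679). For NDUFV2 a dimmer set had -0.31 at 2 h and -0.30 at 6 h, beside -0.02 and 0.03. The second set of SDHA had 0.01, 0.24 and 0.13 at 2 h, 6 h and 24 h, and that of SDHB -0.06, -0.04 and 0.06.

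Genes around the chain were read from lists, and none of those named passed limma's adjusted test. Of 19 electron carriers and partners 9 were measured, and all 9 had a higher mean at 24 h (52% of all probe sets did), with a median of 0.16. In that list 4 were higher at an unadjusted p under 0.05, against 6.41% of all probe sets, among them CYCS, the cytochrome c that links complexes III and IV, with 0.37 ± 0.26 (limma adjusted p = 0.266), and ETFDH, which passes electrons from fatty acid oxidation to ubiquinone, with 0.26 ± 0.20 (0.280). Of 14 citrate cycle enzymes 13 were measured, and all 13 had a higher mean, with a median of 0.13 and 5 higher at an unadjusted p under 0.05, against the same 52% and 6.41%. MDH2 had 0.30 ± 0.17 (limma adjusted p = 0.248) and IDH2 0.31 ± 0.17 (0.260). The 10 genes of ADP, ATP, phosphate and ion exchange had a median of 0.08, with 8 of 10 higher (52% of all probe sets) and 0 at an unadjusted p under 0.05 in limma's test. SLC25A4, the muscle form of the ADP/ATP carrier, had 0.13 and SLC25A5, a widely expressed form, -0.14.

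The genes that build or control the chain had lower 24 h medians than the members, a gap that was not tested. Of 43 assembly factors 12 were measured, 8 of them with a higher mean at 24 h (52% of all probe sets). Their median was 0.02, beside -0.01 for the 6765 genes. COX10, which makes the haem of complex IV, had 0.32 ± 0.37 (limma adjusted p = 0.300) and LYRM7, which helps insert the iron-sulfur protein of complex III, had -0.25 ± 0.18 (0.326). Of 17 regulators of mitochondrial genes 8 were measured, 2 with a higher mean (52% of all probe sets), and the median was -0.10. PPARGC1A, the coactivator PGC-1 alpha, had -0.32 ± 0.72 (limma adjusted p = 0.592), with a spread over pigs larger than the difference, and TFAM, which binds mitochondrial DNA, had 0.08 ± 0.06 (0.671).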

How the data were processed

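Total RNA was labelled with biotin and hybridised to 1-colour Affymetrix arrays, per the labels' protocols. Each deposited value is a log2 intensity of a probe set. The authors used RMA and affy, per the submitters' processing notes, and their versions are not given in the sources read here. RMA gives all arrays the same distribution, so a change common to all transcripts would not show. Precision is limited by the 3 arrays of each time.

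After 124 control probe sets were left out, 23999 were tested without a filter on level. Of these, 10069 had 1 symbol in the platform annotation, 198 several and 13732 none. The members came from 75 probe sets, and all 60 gene IDs had the same symbol in the RefSeq table of Sscrofa11.1. A probe set that joins entries of ATP5SL was left out. Coordinates and sequences were not used here.

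One linear model of all 12 arrays, with time and with pig as a fixed block, was fitted in limma 3.58.1 (R 4.3.3, statmod 1.5.0), with 6 residual and 5.67 prior degrees of freedom. Two-sided p-values were adjusted by Benjamini-Hochberg over all probe sets of a comparison. Differences are later minus earlier, and errors are SDs over the differences of the 3 pigs. Arrays are paired by animal, as the design text states. The deviations of arrays of the same pig from their time means had correlations of 0.409 to 0.656. The model was tested on simulated data.

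The members, gene lists and tests were chosen with earlier results of these data known. Array values were given for the 2 highest and the lowest 24 h difference of each complex, all of complex II, the 3 smallest p of each comparison with 20 min, and paired isoforms of complex IV. COX6C, ATP5A1, NDUFA11, NDUFS6 and ATP5G2 were named between 24 h and 6 h after their values were seen. Alternatives were the model without the block or with a random block, other scalings, a filter on dim probe sets, another prior, array weights, other probe sets, and leaving out pigs or arrays.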

Additional observations from a re-analysis of the deposited data

How the results depend on the processing

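In the 6 comparisons 0 of 60 members passed the adjusted threshold under any of the 27 other settings, and the members' median difference from 20 min stayed positive in all of them. The counts at an unadjusted p under 0.05 moved much more. Without the replicate block, in place of the paired model, the counts of higher members were 8 at 6 h and 7 at 24 h. The share of all probe sets higher in that setting was 1.83% and 3.39%. Each share below is likewise over all probe sets in its setting. A trended and robust prior gave 14, 28 and 28 at 2 h, 6 h and 24 h, against 3.94%, 4.55% and 6.15%. It gave 4 for 24 h minus 2 h, against 2.18%. For 24 h minus 6 h 1 was higher and 1 lower, against 3.76% and 3.98%. Array weights gave 10 at 2 h and 23 at 24 h, against 5.2% and 7.98%. They gave 1 lower for 24 h minus 6 h, against 5.45%. Using only the arrays of the times compared leaves fewer samples in the model. It gave 2, 8 and 3 of 60 higher, against 2.54%, 4.28% and 4.61%. For 24 h minus 6 h it gave 1 lower, against 5.27%. Cyclic loess gave 8 at 2 h, against 3.8%, and centring on the brightest 10% gave 22 at 24 h, against 9.75%. The median for 24 h minus 6 h was 0.0214 with cyclic loess, 0.0309 with quantile normalisation repeated and 0.0381 with that centring. When all probe sets of the members, or the most variable 1 per gene, were counted, 1 was lower at 2 h and 1 at 6 h. The shares lower were 3.94% and 4.54%. Leaving out a pig or an array gave 0 to 24 higher members at 2 h, 2 to 29 at 6 h and 0 to 32 at 24 h. The shares for these ends are given above. For 24 h minus 6 h it gave 0 to 2 lower, with 2 without the 24 h array of pig 2, against 5.58%. The medians then ranged between -0.0323 and 0.0171 for 24 h minus 6 h, between 0.0221 and 0.0862 for 6 h minus 2 h and between 0.0146 and 0.0719 for 24 h minus 2 h. Without pig 3 the 24 h medians of complexes I to V were 0.06, 0.10, 0.16, 0.10 and 0.08, and without pig 1 that of complex IV was 0.25. Of the 54 differences of the 18 members with array values, 11 changed sign under some setting, all in ATP5G2, COX6A1, COX7A2, NDUFA7 and SDHB, and the smallest adjusted p in any setting was 0.0527 for NDUFA13 at 6 h without the 20 min array of pig 1. Where the cause of a change is not stated, the cause was not tested.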
